A study of Mus musculus with 15 samples.

Results

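The genes described are 9 named genes of Nodal signalling, out of the 48709 genes counted in mouse embryonic stem cells (ESCs) losing OCT4: the ligand gene *Nodal*, the secreted inhibitors *Lefty1*, *Lefty2* and *Cer1*, the co-receptor gene *Tdgf1*, the receptor gene *Acvr2b*, the convertase gene *Furin* and the intracellular inhibitors *Smad7* and *Skil*. They were followed in all 15 libraries of both time courses. CreER ESCs (strain Mixed 129SV C57BL/6, genotype Oct4 Fl/-; CAG CreER) carry a floxed and a null allele of *Pou5f1*, the gene for OCT4, and lose the floxed allele when 4-hydroxytamoxifen (4-OHT, 500 nM) activates a Cre recombinase driven by the CAG promoter. Their RNA was sampled after 0, 12, 18, 24 and 36 h as 2 replicates per time. O4AID ESCs (strain 129SV) are Oct4-/- with a TetOFF Oct4 transgene, to which CAG Oct4AID and CAG Tir1 were added. They were kept in doxycycline (1 µg/ml) at every time, which silences their wild-type *Oct4* transgene, and depend on OCT4 fused to an auxin-inducible degron, which is degraded after addition of the auxin IAA (500 µM). They were sampled after 0, 1.5, 6, 10 and 24 h of IAA, with 1 library per time, and are 1 line derived from ZHBT ESCs by inserting transgenes with a transposon. All cells were grown in N2B27 with the MEK inhibitor PD03 (1 µM), the GSK3 inhibitor Chiron (3 µM) and mLIF. The 0 h cells of each line were the only untreated ones analysed here. Effects of the drug, of hours in culture and of OCT4 loss therefore cannot be told apart in these libraries. In GRCm38 (GENCODE) *Nodal* lies at chr10:61417972-61425338 and *Skil* at chr3:31095058-31122577 on the plus strand, *Acvr2b* at chr9:119402444-119433501 on the plus strand and *Cer1* at chr4:82881751-82885148 on the minus strand, and *Lefty1*, *Lefty2*, *Tdgf1* and *Furin* are placed further on.

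NODAL is a secreted ligand of the TGF-beta superfamily, released from its precursor by convertases such as FURIN. It acts through activin receptors together with the membrane-anchored co-receptor CRIPTO, the product of *Tdgf1*, and the receptors phosphorylate SMAD2 and SMAD3, which enter the nucleus with SMAD4 and use FOXH1 as a partner on DNA. *Nodal* itself, *Lefty1* and *Lefty2* are known targets of this signal, so that the pathway amplifies itself and also makes its own inhibitors, and in ESCs and the epiblast it is an autocrine signal.

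Between 21.7 and 30.8 mega-counts were read per CreER library, and between 40.5 and 48.7 per O4AID library. *Pou5f1* stood at 330 and 324 TMM-scaled counts per mega-count (CPM) in the untreated CreER replicates, then at 226 and 235 (12 h), 168 and 169 (18 h), 136 and 138 (24 h) and 115 and 128 (36 h), so reads of the gene were lower at each successive time and not absent. Counts per gene do not tell transcripts of the intact floxed allele from those of the recombined or null allele, so the intact mRNA left at 36 h is not known. In O4AID, where IAA targets the protein, *Pou5f1* reads, which cannot be assigned to transgene or endogenous gene, stood at 711, 814, 682, 671 and 614 CPM in order of time. All 8 naive ESC markers examined, among them *Nanog*, *Zfp42* and *Esrrb*, were detected in every library. The labels do not say whether CreER replicates came from separate cultures, so the p-values measure the spread between these libraries, which may be technical. RNA of whole cultures was counted, so fewer cells of a type cannot be told apart from less RNA per cell.

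The sequences shown first are those that limit how the counts can be read. *Lefty1* (chr1:180935022-180938400, plus strand) and *Lefty2* (chr1:180893108-180899103, plus strand) are neighbours with coding sequences of 1104 bases each that were 91.8% identical, with 90 differing bases (GRCm38, GENCODE). The stretch that separates them best, coding bases 46 to 165 counted from 1 at the start codon, lies at chr1:180935155-180935274 in *Lefty1* and chr1:180893229-180893348 in *Lefty2* and holds 34 of the differing bases, which are in capitals.
Lefty1: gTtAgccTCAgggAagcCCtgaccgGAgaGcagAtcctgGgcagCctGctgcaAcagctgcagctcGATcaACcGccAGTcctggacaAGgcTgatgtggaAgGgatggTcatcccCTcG
Lefty2: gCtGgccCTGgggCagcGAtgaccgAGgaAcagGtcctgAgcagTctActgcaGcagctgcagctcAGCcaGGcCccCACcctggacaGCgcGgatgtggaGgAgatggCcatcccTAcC
Elsewhere the genes run together: 17.9% of the windows of 50 bases in *Lefty1* exons and 11.6% of those in *Lefty2* exons were found unaltered in the other gene, and reads that fall in such windows may be split between them or discarded. Summed counts of the pair are therefore given beside the single genes. *Tdgf1* (chr9:110939603-110946158, minus strand) has a counted pseudogene copy, *Tdgf1-ps1*, in which 50.9% of windows of 50 bases matched *Tdgf1*, and *Furin* (chr7:80388585-80405436, minus strand) shares 118 exon bases with *Gm44851* on the opposite strand, which held 14 counts over the 15 libraries.

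The regions upstream of *Nodal* and *Tdgf1* are shown because these genes stood at least 2-fold lower after 24 h of IAA and had a RefSeq promoter. They are the 250 bases before the start of each gene in RefSeq (GRCm38.p6), chr10:61417722-61417971 on the plus strand for *Nodal* and chr9:110946159-110946408 on the minus strand for *Tdgf1*, with matches to the short SMAD motif CAGAC in capitals.
Nodal: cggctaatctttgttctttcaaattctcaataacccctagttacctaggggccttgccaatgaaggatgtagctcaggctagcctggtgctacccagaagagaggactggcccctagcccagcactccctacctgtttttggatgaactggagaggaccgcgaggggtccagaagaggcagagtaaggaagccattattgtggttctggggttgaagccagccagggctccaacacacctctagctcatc
Tdgf1: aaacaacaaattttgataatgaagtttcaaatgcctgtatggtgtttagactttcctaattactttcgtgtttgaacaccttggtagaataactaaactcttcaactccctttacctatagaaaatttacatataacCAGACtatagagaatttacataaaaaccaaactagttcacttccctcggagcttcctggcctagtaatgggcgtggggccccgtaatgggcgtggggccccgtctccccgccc
Both strands were searched for the octamer bound by OCT4 (ATGCAAAT), the SOX motif CATTGT, the FOXH1 motif AATCCACA, the SMAD palindrome GTCTAGAC and the short SMAD motif CAGAC, none of which contains another. *Tdgf1* held a single match, to CAGAC, starting 113 bases before the gene, and *Nodal* held none. CAGAC was found in 42.2% of the 32851 promoters of the same length, CATTGT in 10.7%, the octamer in 1.6%, AATCCACA in 0.718% and GTCTAGAC in 0.167%. RefSeq promoters were also read for *Cer1*, *Acvr2b* and *Furin*, of which *Cer1* and *Acvr2b* held 1 CAGAC each and the 2 promoters of *Furin* held 3, while *Lefty1*, *Lefty2*, *Skil* and *Smad7* had no entry.

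Before treatment, the co-receptor gene was by far the most abundant member in CreER and also led in O4AID. Per kilobase of exon, *Tdgf1* stood at 265 ± 21.3 CPM (SD, n = 2) in CreER at 0 h. *Nodal* followed at 37.0 ± 2.09, *Skil* at 28.0 ± 1.35, *Lefty2* at 22.8 ± 1.1, *Lefty1* at 18.1 ± 1.12, *Smad7* at 14.6 ± 0.404, *Acvr2b* at 9.14 ± 0.864 and *Furin* at 1.89 ± 0.00684 CPM per kilobase. No 2 neighbours in this order overlapped between replicates. *Cer1*, which encodes a secreted antagonist made by visceral endoderm, had 0 to 3 counts in each of the 15 libraries, at or under the detection floor of 3 counts, and entered no comparison. In O4AID at 0 h the order was *Tdgf1* (79.2 CPM per kilobase), *Smad7* (22.2), *Nodal* (19.2), *Skil* (14.8), *Acvr2b* (6.30), *Furin* (3.93), *Lefty1* (1.01) and *Lefty2* (0.737).

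The largest differences between the untreated lines among the members were in the *Lefty* genes. Scaled over all 15 libraries, *Lefty1* stood at 32.7 and 29.7 CPM in the untreated CreER replicates and at 1.89 CPM in untreated O4AID, a ratio of 16.5. *Lefty2* stood at 60.5 and 56.2 CPM in CreER and at 2.05 CPM in O4AID, a ratio of 28.5. *Tdgf1* stood at 645 and 718 CPM against 221, and *Nodal* at 79.1 and 72.6 against 42.9. The pseudogene *Tdgf1-ps1*, scaled within each line, stood at 242 and 250 CPM in untreated CreER and at 9.22 CPM in untreated O4AID. How reads shared by *Tdgf1* and this copy were counted in either line is not known, which limits the *Tdgf1* difference. *Furin* went the other way, with 17.1 and 16.9 CPM in CreER against 38.4 in O4AID.

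Of the 8 members above the count minimum (a mean of 10 counts), 3 were at least 2-fold lower in O4AID (*Lefty1*, *Lefty2* and *Tdgf1*) and 1 at least 2-fold higher (*Furin*), while 32.0% of all 18601 genes compared differed by at least 2-fold (16.4% higher in O4AID, 15.5% lower). Such a difference was thus common between the lines. On this scale, of CPM plus 1, 2.54% of genes were as low in O4AID as *Lefty1* or lower and 1.54% as low as *Lefty2* or lower. Genes with few reads in CreER could not differ so far on it, so these shares include genes that could not pass. The lines differ in strain, transgenes, doxycycline and library, which cannot be told apart, and with 1 untreated O4AID library no test was made.

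**Figure D1:**
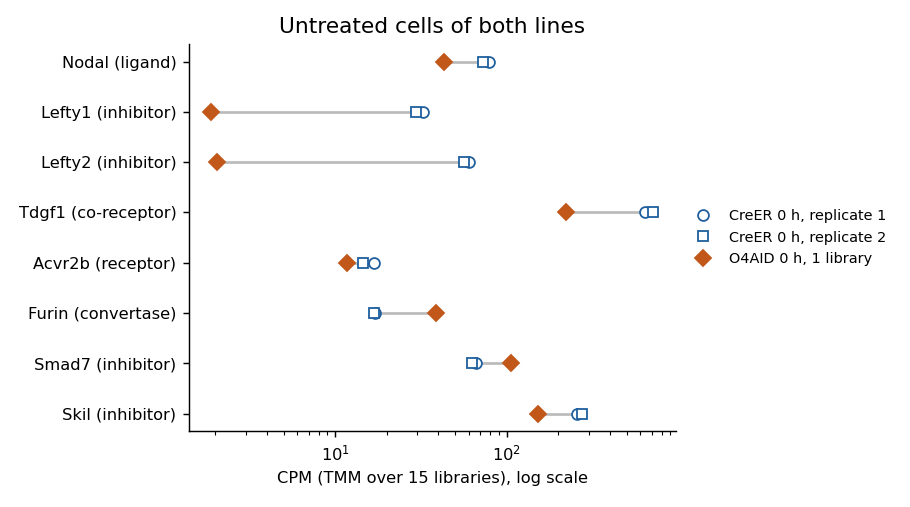
Expression of the 8 detected members in untreated cells of both lines, in TMM-scaled CPM on a log axis, with a point for each library (2 CreER replicates, 1 O4AID library). *Lefty1* and *Lefty2* lie 16.5 and 28.5 times higher in CreER, and *Furin* and *Smad7* lie higher in O4AID.

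The first comparison asked how the members moved while *Pou5f1* reads fell gradually in CreER. The ligand gene itself moved little. *Nodal* stood at 80.5 and 74.3 CPM in the untreated replicates, then at 82.0 and 79.0 (12 h), 80.8 and 84.2 (18 h), 79.5 and 78.1 (24 h) and 67.3 and 69.4 (36 h). Only the 36 h libraries lay below both libraries of every other time. Against untreated cells its log2 fold changes were 0.06, 0.09 and 0.03 through 24 h, none of which passed, and it fell by 0.18 by 36 h (SE 0.051, adjusted p 0.00657, edgeR's quasi-likelihood test with Benjamini-Hochberg adjustment). That call was lost without the untreated replicate 1 (adjusted p 0.0958) or the 36 h replicate 1 (0.0527), over alternatives that ranged from 0.000257 to 0.0958.

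Both *Lefty* genes, the feedback inhibitors that block NODAL from its receptors, rose and later fell below their starting level. *Lefty1* stood at 33.3 and 30.5 CPM in the untreated replicates, then at 38.7 and 42.4 (12 h), 41.6 and 44.0 (18 h), 40.9 and 43.6 (24 h) and 17.1 and 18.8 (36 h). Every library from 12 to 24 h lay above both 0 h libraries, and both 36 h libraries lay below all others. In edgeR's quasi-likelihood test *Lefty1* had log2 fold changes of 0.35 (12 h, SE 0.067, adjusted p 0.0110), 0.43 (18 h, 7.69e-05), 0.41 (24 h, 4.61e-05) and -0.83 (36 h, SE 0.076, 1.07e-09). The 12 h call was lost without the untreated replicate 2 (0.214) or either 12 h replicate (0.0858 and 0.263), over alternatives from 6.17e-05 to 0.263. *Lefty2* stood at 61.6 and 57.6 CPM in the untreated replicates, then at 72.4 and 73.2 (12 h), 71.3 and 67.5 (18 h), 69.2 and 64.9 (24 h) and 39.1 and 38.3 (36 h). Its libraries from 12 to 24 h also lay above both untreated ones, and its 36 h libraries were again the lowest.

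*Lefty2* had log2 fold changes in edgeR's quasi-likelihood test of 0.29 (12 h, SE 0.053, adjusted p 0.00729), 0.22 (18 h, 0.00786), 0.17 (24 h, 0.0195) and -0.62 (36 h, SE 0.057, 1.12e-09). Its 12 h call was lost without the untreated replicate 2 (adjusted p 0.122) or either 12 h replicate (0.173 and 0.126), over alternatives from 7.89e-05 to 0.173. Its 18 h call was lost without the untreated replicate 2 (adjusted p 0.126) or the 18 h replicate 1 (0.154), over alternatives from 8.61e-05 to 0.154. Its 24 h call was lost without the untreated replicate 2 (0.194) or the 24 h replicate 1 (0.258) and with DESeq2 (0.0848), over alternatives that ranged from 0.000155 to 0.258. The pair summed to 1 feature, which does not depend on how shared reads were split, stood at 94.9 and 88.1 CPM before treatment, 110 and 109 (24 h) and 56.1 and 57.1 (36 h). Its log2 fold changes in the same test were 0.31 (12 h, adjusted p 0.00101), 0.30 (18 h, 8.61e-05), 0.26 (24 h, 0.000155) and -0.69 (36 h, 8.24e-12).

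*Tdgf1*, the co-receptor gene, fell at every time. Its replicates stood at 656 and 735 CPM untreated, then at 588 and 609 (12 h), 466 and 494 (18 h), 380 and 384 (24 h) and 266 and 257 (36 h), and no library of a later time reached one of an earlier time. On the log2 scale it fell by 0.22 (12 h, SE 0.045, adjusted p 0.0203, edgeR's quasi-likelihood test), by 0.54 (18 h, 1.1e-08), by 0.86 (24 h, 1.95e-13) and by 1.41 (36 h, SE 0.047, 2.05e-18), the last of which was a 2.66-fold decrease. The 12 h call was lost without the untreated replicate 2 (0.398) or either 12 h replicate (0.468 and 0.127) and with those 2 times alone (0.0998), over alternatives from 6.17e-05 to 0.468. The pseudogene *Tdgf1-ps1* stood at 242 and 250 CPM untreated and 92.1 and 101 at 36 h, and *Tdgf1* summed with it fell by 1.40 at 36 h. *Acvr2b*, a type II activin receptor, was not called at any time. Its CPM lay between 14.9 and 17.6 in all 10 CreER libraries, and the approximate 95% interval of its log2 fold change by 36 h was -0.14 to 0.19.

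*Furin*, whose product cleaves the NODAL precursor, rose. Its replicates stood at 17.4 and 17.3 CPM untreated, then at 19.9 and 19.5 (12 h), 19.0 and 21.3 (18 h), 21.7 and 21.4 (24 h) and 24.2 and 27.5 (36 h), with every treated library above both untreated ones. By 24 h it had risen by 0.32 on the log2 scale (SE 0.077, adjusted p 0.00396, edgeR's quasi-likelihood test) and by 36 h by 0.57 (SE 0.078, adjusted p 1.16e-06), whereas the earlier values of 0.19 and 0.22 did not pass.

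The intracellular inhibitors went opposite ways. *Smad7*, an inhibitory SMAD induced by the signal, stood at 67.1 and 64.5 CPM untreated, then at 64.5 and 63.3 (12 h), 68.5 and 64.5 (18 h), 77.5 and 74.5 (24 h) and 80.4 and 90.2 (36 h). Its 12 h and 18 h libraries overlapped the untreated ones and those of 24 and 36 h did not. On the log2 scale it rose by 0.21 by 24 h (SE 0.054, adjusted p 0.00609, edgeR's quasi-likelihood test) and by 0.37 by 36 h (SE 0.055, adjusted p 3.84e-06). The 24 h call was lost without the untreated replicate 2 (adjusted p 0.0607) or the 24 h replicate 1 (0.104), over alternatives that ranged from 0.00118 to 0.104.

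*Skil*, which encodes the SMAD corepressor SnoN, stood at 262 and 280 CPM untreated, then at 238 and 262 (12 h), 222 and 223 (18 h), 200 and 201 (24 h) and 149 and 138 (36 h). From 18 h on, the libraries of each time lay below all of those before. On the log2 scale *Skil* fell by 0.28 (18 h, SE 0.047, adjusted p 0.000186, edgeR's quasi-likelihood test), by 0.44 (24 h, 7.1e-08) and by 0.92 (36 h, SE 0.048, 1.61e-14), and its 12 h value of -0.12 did not pass.

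**Figure D2:**
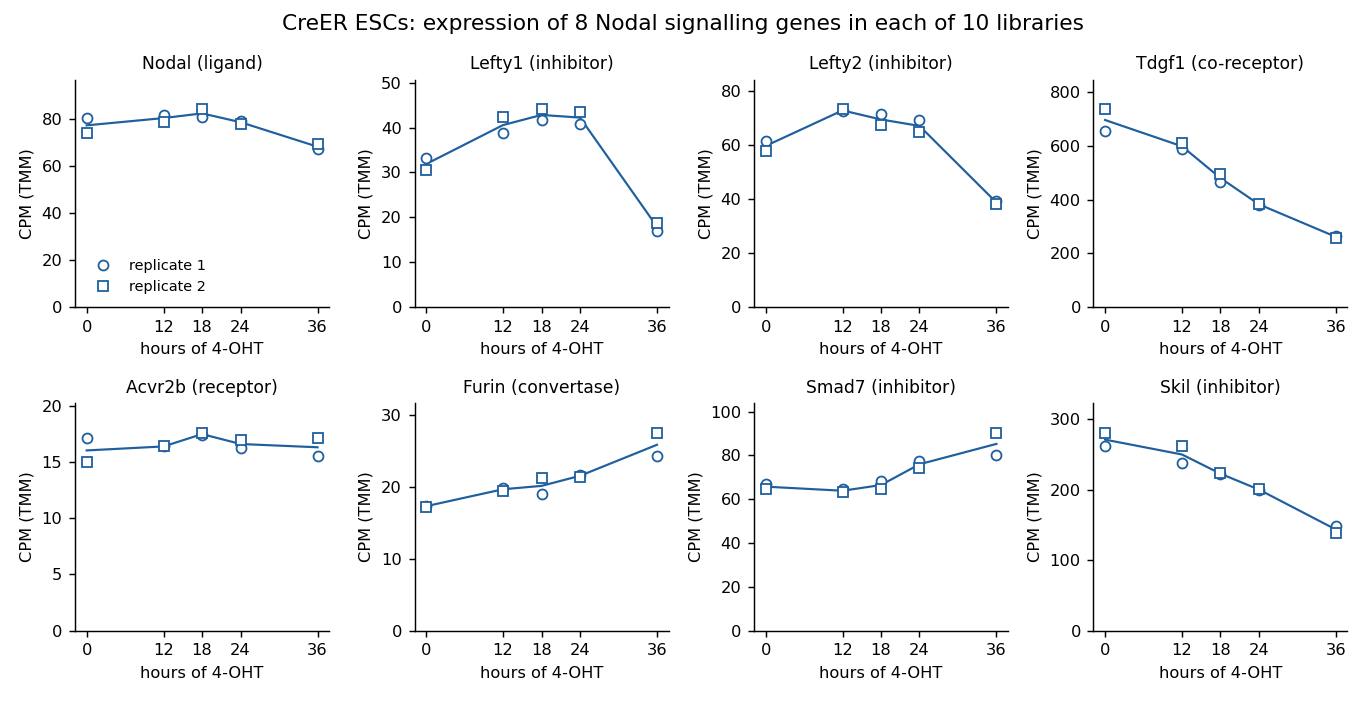
TMM-scaled CPM of the 8 detected members against hours of 4-OHT in CreER ESCs, with both replicates as open points and their mean as a line, each panel on its own axis from 0. *Lefty1* and *Lefty2* lie above their 0 h level from 12 to 24 h and below it at 36 h, whereas *Tdgf1* and *Skil* decline and *Furin* and *Smad7* rise.

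Counted together, 3 of the 8 members tested in CreER were called at 12 h (*Lefty1* and *Lefty2* higher, *Tdgf1* lower), against 0.395% of all 18969 genes tested (0.258% higher, 0.137% lower). All 3 calls were lost without the untreated replicate 2 or without either 12 h replicate, so that 0 members were then called. At 18 h 4 members were called (2 higher, 2 lower) against 8.52% of all genes (4.73% higher, 3.79% lower). At 24 h 6 were called (4 higher, 2 lower) against 21.6% of genes (11.0% higher, 10.6% lower). At 36 h 7 were called (2 higher, 5 lower) against 36.6% of genes (19.4% higher, 17.2% lower). The members were chosen with earlier results of these data known, so these shares do not test whether members were called more often. The median log2 fold change of the 8 members was 0.05, 0.11, 0.11 and -0.40 at the 4 times, while that of all genes tested lay between 0.00 and 0.01.

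The step from 24 to 36 h, chosen for comparison after the levels had been seen, held the drop of the *Lefty* genes. *Lefty1* fell by 1.24 on the log2 scale (SE 0.074, adjusted p 2.89e-12, edgeR's quasi-likelihood test), a 2.36-fold decrease, and *Lefty2* by 0.79 (SE 0.056, adjusted p 9.63e-11). Over the same 12 h *Tdgf1* fell by 0.55 (3.62e-09), *Skil* by 0.48 (5.8e-08) and *Nodal* by 0.21 (0.00598), and *Furin* and *Smad7* rose by 0.26 (0.0195) and 0.16 (0.0409) in that test. *Pou5f1* fell by 0.18 in this step (adjusted p 0.00888, lost without either 24 h replicate, 0.06 and 0.0773, and without the 36 h replicate 1, 0.186) and by 1.26 in the first 24 h. This made 7 of 8 members called (2 higher, 5 lower), against 14.7% of all genes (8.13% higher, 6.55% lower), with a median of -0.34 against 0.00. Without the 24 h replicate 1, 4 members were called, the calls of *Nodal* (adjusted p 0.0721), *Smad7* (0.0958) and *Furin* (0.0934) being lost. The call of *Nodal* was also lost without the 36 h replicate 1 (0.0508). Those of *Furin* and *Smad7* were also lost with DESeq2 (0.0833 and 0.113), under total-count scaling (0.169 and 0.543), and without the 24 h replicate 2 (0.123 and 0.27) or the 36 h replicate 2 (0.241 and 0.428). That of *Smad7* was lost as well with the 2 times alone (0.0903) and without either 12 h replicate (0.0626 and 0.0549).

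The second comparison asked how the members stood when OCT4 protein was degraded directly. Each value rests on 1 library, so the ratios compare libraries and not conditions, and the 95% intervals, from exact Poisson limits, cover counting error only. Changes are given as log2 ratios of CPM plus 1 against the 0 h library.

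*Nodal* stood at 40.3 CPM before IAA, then at 53.5 (1.5 h), 31.5 (6 h), 25.6 (10 h) and 18.7 (24 h). It was thus highest in the 1.5 h library and lower at each later time, with log2 ratios of 0.40 (0.31 to 0.48), -0.35 (-0.45 to -0.25), -0.63 (-0.74 to -0.53) and -1.07 (-1.18 to -0.96). *Tdgf1* stood at 208 CPM before IAA, then at 174 (1.5 h), 66.1 (6 h), 42.5 (10 h) and 50.3 (24 h). Most of the difference was present at 6 h, with a log2 ratio of -1.64 (-1.70 to -1.58) there and of -2.03 (-2.09 to -1.96) at 24 h. Its pseudogene copy *Tdgf1-ps1* stood at 9.22 CPM before IAA, 2.61 at 6 h and 2.05 at 24 h.

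The *Lefty* genes began at 84 and 91 counts, so their values are coarse. *Lefty1* stood at 1.78 CPM before IAA, then at 1.63 (1.5 h), 0.362 (6 h), 0.269 (10 h) and 0.381 (24 h), from 84, 73, 15, 11 and 18 counts. It was low in all 3 libraries from 6 h on, with log2 ratios of -1.03 (-1.30 to -0.72), -1.13 (-1.39 to -0.83) and -1.01 (-1.28 to -0.71). *Lefty2* stood at 1.92 CPM before IAA, then at 1.88 (1.5 h), 3.33 (6 h), 0.636 (10 h) and 0.0423 (24 h), from 91, 84, 138, 26 and 2 counts. At 6 h it therefore went against *Lefty1*, with a log2 ratio of 0.57 (0.29 to 0.84), and at 24 h it was at -1.49 (-1.70 to -1.24).

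The added 1 CPM understates such low genes, so plain ratios of CPM were also taken. At 24 h *Lefty1* was 4.66-fold lower than at 0 h (exact 95% interval 2.78 to 8.24) and *Lefty2* 45.5-fold lower (12.2 to 381), the latter from 2 counts. The summed pair held 175, 157, 153, 37 and 20 counts in order of time. Its ratio of 6 h to 0 h was 0.997 (0.798 to 1.25), and at 24 h it was 8.74-fold lower (5.49 to 14.7).

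The remaining members differed less. *Smad7* was highest at 1.5 h, with 134 CPM against 100.1 at 0 h, 118 at 6 and 10 h and 103 at 24 h, and its log2 ratio was 0.42 (0.37 to 0.48) at 1.5 h and 0.04 (-0.02 to 0.10) at 24 h. *Skil* stood at 144, 126, 136, 129 and 113 CPM in order of time, with a log2 ratio of -0.35 (-0.40 to -0.29) at 24 h. *Acvr2b* lay between 11.0 and 12.0 CPM and *Furin* between 31.8 and 38.4 CPM in the 5 libraries, with log2 ratios at 24 h of 0.00 (-0.16 to 0.16) and -0.02 (-0.12 to 0.07).

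**Figure D3:**
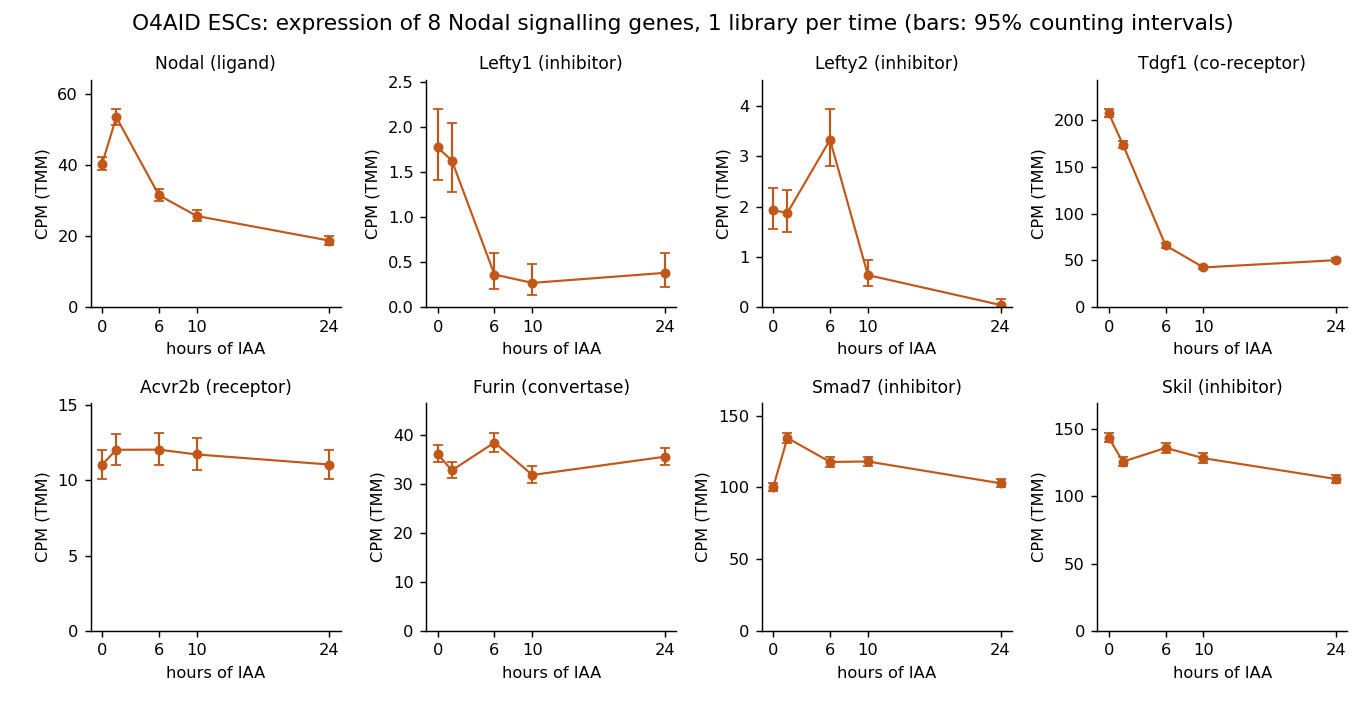
TMM-scaled CPM of the 8 detected members against hours of IAA in O4AID ESCs, 1 library per time, with 95% intervals from the Poisson counting error, each panel on its own axis from 0. *Nodal* and *Smad7* peak at 1.5 h, *Lefty2* peaks at 6 h, and *Nodal*, *Lefty1*, *Lefty2* and *Tdgf1* are at least 2-fold below their 0 h level at 24 h.

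Of the 8 members above the count minimum, 0 differed by at least 2-fold at 1.5 h, against 0.0858% of all 17476 genes compared (0.0229% higher, 0.0629% lower). At 6 h 2 were at least 2-fold lower (*Lefty1* and *Tdgf1*) against 0.943% of genes past this limit (0.420% higher, 0.523% lower). At 10 h the same 2 were, against 2.07% of genes (1.14% higher, 0.935% lower). At 24 h 4 were (*Nodal*, *Lefty1*, *Lefty2* and *Tdgf1*), against 6.74% of genes (4.09% higher, 2.65% lower). No member was at least 2-fold higher at any of the 4 times. A gene under 1 CPM at 0 h could not be 2-fold lower on this scale, so the shares of all genes include genes that could not pass. *Nodal* and *Lefty1* lay close to this limit at 24 h on the scale of CPM plus 1, where the plain ratio of *Lefty1* was 4.66-fold. On the scale of CPM plus 1 *Lefty2* was 1.79-fold lower at 10 h and so was not counted. By plain ratio *Lefty2* was 3.02-fold lower at 10 h (exact interval 1.94 to 4.87), from 26 counts. Adding 5 CPM in place of 1 left 1 member past the limit at 6, 10 and 24 h, total-count scaling left 1 at 6 h and 2 at 24 h, and summing the *Lefty* pair left 1 at 6 h. The median log2 ratio of the 8 members was -0.05, 0.01, -0.41 and -0.68 at the 4 times, and that of all genes lay between 0.00 and 0.02.

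The value at 24 h, the only treated time sampled on both routes, can be set side by side on the log2 scale of CPM plus 1. *Lefty1* was at 0.35 and 0.44 in the CreER replicates and at -1.01 in O4AID, and *Lefty2* at 0.21 and 0.12 in CreER and at -1.49 in O4AID, so each gene lay on opposite sides of its 0 h level. *Nodal* was at 0.04 and 0.01 in CreER and at -1.07 in O4AID. *Tdgf1* was lower on both routes, at -0.87 and -0.86 in CreER and at -2.03 in O4AID. *Skil* was at -0.44 and -0.43 in CreER and at -0.35 in O4AID, and *Acvr2b* at 0.02 and 0.07 in CreER and 0.00 in O4AID. *Smad7* was at 0.23 and 0.18 in CreER and 0.04 in O4AID, and *Furin* at 0.31 and 0.29 in CreER and -0.02 in O4AID. With 1 O4AID library, the differences between routes were not tested, and the same hour does not stand for the same amount of OCT4 protein.

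**Figure D4:**
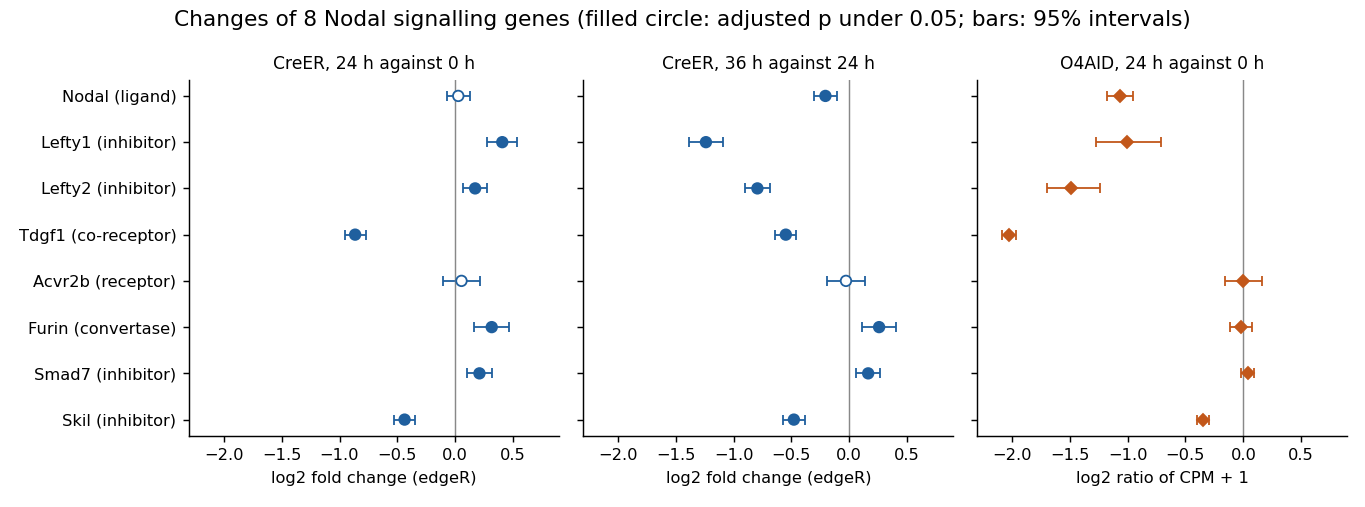
Log2 changes of the 8 detected members in CreER at 24 h against 0 h, in CreER at 36 h against 24 h (edgeR, filled where the adjusted p was under 0.05) and in O4AID at 24 h against 0 h (log2 ratio of CPM plus 1), with 95% intervals that cover replicate spread in CreER and counting error alone in O4AID. *Lefty1* and *Lefty2* lie above 0 in the first panel, at 0.41 and 0.17, and below 0 in the others.

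The rest of the pathway was read from a list of 40 other genes, of which 35 were tested in CreER. None was called at 12 h by edgeR's quasi-likelihood test, while 4 had an unadjusted p under 0.05 and DESeq2 called 0. By 18 h 7 were called (6 higher, 1 lower), which is 20% of the list against 8.52% of all genes. By 24 h 7 were again called (6 higher, 1 lower), 20% against 21.6%, by 36 h 16 (10 higher, 6 lower), 45.7% against 36.6%, and between 24 and 36 h 8 (4 higher, 4 lower), 22.9% against 14.7%. At 24 h the list's share was thus near that of all genes. The median log2 fold change at 36 h was 0.07 against 0.01 for all genes. DESeq2 called 4 at 18 h, as did the fits without the untreated replicate 2 or either 18 h replicate. For 36 h DESeq2 called 11 and the fit without the untreated replicate 1 called 10, and for 36 h against 24 h those without the 24 h replicate 2 and the 36 h replicate 1 called 4 and 5.

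Among the other ligands, *Gdf3*, which signals through the same receptors, fell with *Tdgf1*. It stood at 111 ± 6.31 CPM (SD, n = 2) untreated, 74.1 ± 3.61 (24 h) and 53.6 ± 4.41 (36 h), a fall of 1.06 on the log2 scale (SE 0.056, adjusted p 2.38e-14, edgeR's quasi-likelihood test). *Inhbb*, a subunit of activins and inhibins, fell by 0.44 at 36 h (adjusted p 4.44e-05), from 22.9 ± 0.896 to 16.9 ± 0.377 CPM. Beside the 36.6% of all genes called at 36 h (19.4% higher, 17.2% lower), the counts by role that follow are small. Of the 5 receptor genes tested 3 rose at 36 h, and the largest rise was that of *Tgfbr2*, a type II receptor for TGF-beta, at 1.23 (SE 0.16, adjusted p 3.99e-07) from 2.31 ± 0.0191 to 5.45 ± 0.547 CPM. *Acvr1b*, the type I receptor for NODAL and activin, rose by 0.24 (adjusted p 0.00267), a call lost under total-count scaling (0.0525). The third, *Tgfbr3*, a co-receptor for TGF-beta named after its values were seen, rose by 0.44 (adjusted p 0.0182), a call lost with DESeq2 (0.112), under total-count scaling (0.0545), and when the untreated replicate 1 (0.172) or the 36 h replicate 1 (0.154) was left out, so that total-count scaling left 1 of the 5 called.

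Of the 6 transducer genes 2 rose and 1 fell at 36 h. *Smad3* rose from 31.3 ± 2.47 CPM untreated to 53.1 ± 1.61 (24 h) and 69.7 ± 1.02 (36 h), by 1.16 on the log2 scale (SE 0.064, adjusted p 4.92e-14, edgeR's quasi-likelihood test). *Smad2* rose by 0.17 (adjusted p 0.0172), a call that was lost with DESeq2 (0.075), with the 2 times alone (0.0547), with total-count scaling (0.284), and without the untreated replicate 2 (0.117) or the 36 h replicate 2 (0.165). *Foxh1* fell by 0.26 (adjusted p 0.00154), a call lost without the untreated replicate 1 (0.0807). Of the 13 other inhibitors 2 rose and 2 fell, and *Smad6*, the second inhibitory SMAD, rose the most, by 1.47 (SE 0.080, adjusted p 2.92e-14) from 13.4 ± 1.56 to 37.0 ± 1.34 CPM. The others, named after their values were seen, were *Ski*, a SMAD corepressor, at 0.25 (9.72e-05), *Ppm1a*, a phosphatase, at -0.15 (0.00447), and *Tgif1*, a SMAD corepressor, at -0.14 (0.0125), the last lost with the 2 times alone (0.0663) and without the untreated replicate 1 (0.115) or the 36 h replicate 1 (0.0781). Of the 2 other convertase genes, *Pcsk6*, whose product cleaves the NODAL precursor, was not called at any of the 4 times, and 1 rose, *Pcsk5*, a call lost under 13 of 20 alternatives and named here after its values were seen.

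Of the 6 target genes tested 2 rose and 1 fell at 36 h. *Eomes*, a T-box factor that is also a trophectoderm marker, rose by 1.69 on the log2 scale at 36 h (SE 0.082, adjusted p 3.21e-15, edgeR's quasi-likelihood test), from 12.8 ± 2.09 to 41.1 ± 1.85 CPM. *Mixl1*, a mesendoderm gene with 7 to 27 counts per CreER library, fell by 1.03 at 36 h (SE 0.39, adjusted p 0.0381). Over the alternatives its adjusted p ranged from 0.0236 to 0.325, and the call was lost without either untreated replicate (0.0583 and 0.154), without the 36 h replicate 1 (0.325), with DESeq2 (0.163), with no filter (0.0693) and with the 2 times alone (0.068). The other rise was that of *Gsc*, a homeobox gene of the organizer named after its values were seen, at 1.06 (adjusted p 0.0114) from 13 to 18 counts untreated to 23 to 31, a call lost with DESeq2 (0.0978) and without the untreated replicate 1 (0.057) or the 36 h replicate 1 (0.0824).

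In O4AID, of the other pathway genes above the count minimum, 0 of 35 differed by at least 2-fold at 1.5 h, 2 of 36 were lower at 6 h (*Inhbb* and *Fst*) against 0.523% of all genes, 3 of 35 at 10 h (these and *Gdf3*) against 0.935%, and 4 of 36 at 24 h (these and *Pcsk6*) against 2.65%, and none was higher. These small counts depend on the added CPM, since 0.1 CPM in place of 1 gave 4, 5 and 8 at these 3 times and 5 CPM gave 1 at 6 h and at 10 h, and total-count scaling gave 1 at 6 h. The shares of all genes again include genes too low at 0 h to be 2-fold lower. *Inhbb* stood at 15.7, 8.1, 5.28, 3.92 and 1.61 CPM in order of time, with a log2 ratio of -2.68 (-2.91 to -2.45) at 24 h. *Gdf3* stood at 72.6, 70.0, 47.5, 35.7 and 21.7 CPM, with -1.70 (-1.79 to -1.60) at 24 h. *Fst*, which encodes the activin-binding protein follistatin, was at -1.59 (-1.85 to -1.31), and *Pcsk6* was at -1.18 (-1.25 to -1.11). *Smad3*, *Smad6* and *Tgfbr2*, which rose in CreER, were at 0.57 (0.51 to 0.63), 0.61 (0.42 to 0.79) and 0.57 (0.44 to 0.70), *Foxh1* was at -0.61 (-0.72 to -0.50) and *Eomes* at 0.10 (-0.08 to 0.29).

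**Figure D5:**
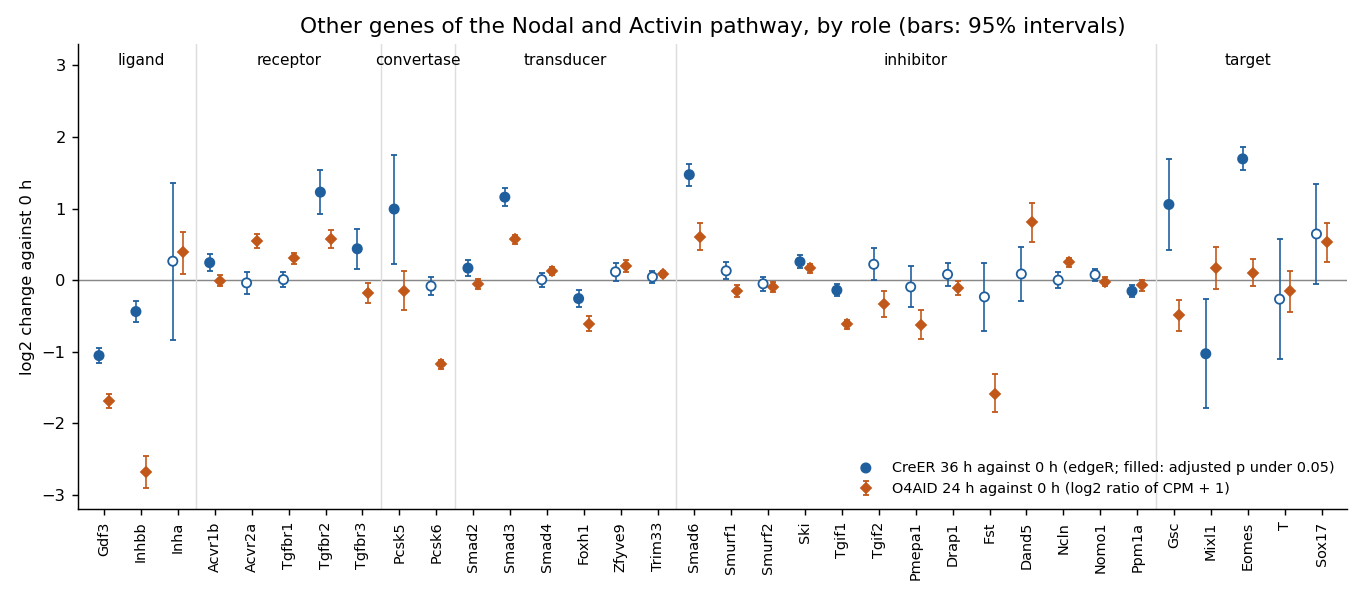
Log2 changes of 34 of the 35 other pathway genes tested in CreER, grouped by role, at 36 h against 0 h in CreER (edgeR, filled where the adjusted p was under 0.05) and at 24 h against 0 h in O4AID (log2 ratio of CPM plus 1, genes above the count minimum), with 95% intervals. *Gdf3* and *Inhbb* lie below 0 on both routes and *Smad3*, *Smad6* and *Tgfbr2* above 0 on both.

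Markers of other states moved in the same libraries. Of all genes, 36.6% were called in CreER at 36 h (19.4% higher, 17.2% lower). In O4AID at 24 h 6.74% of all genes differed by at least 2-fold (4.09% higher, 2.65% lower). The summed level of 8 trophectoderm markers, among them *Cdx2*, *Gata3* and *Eomes*, was 268 to 279 CPM in untreated CreER, 372 to 374 (24 h) and 552 to 606 (36 h), with 8 of 8 called higher at 36 h. It was 25.1 CPM in O4AID at 0 h and 94.4 at 24 h, with 4 of 8 at least 2-fold higher (*Cdx2*, *Krt7*, *Krt8* and *Krt18*). The keratin genes *Krt8* and *Krt18* went from 8.88 to 36.9 and from 5.58 to 33.8 CPM there. *Gata3*, *Hand1*, *Elf5* and *Eomes* did not pass 2-fold, with log2 ratios of 0.90, 0.97, 0.08 and 0.10. The 8 naive ESC markers summed to 2270 to 2295 CPM in CreER at 0 h and 2170 to 2251 at 36 h, with 5 called lower and 2 higher, whereas in O4AID they summed to 5752 CPM at 0 h and 1527 at 24 h, with 8 of 8 at least 2-fold lower. The 8 primitive endoderm markers summed to 233 to 255 CPM in untreated CreER and 354 to 362 after 36 h, with 3 called higher and 1 lower of 7 tested. Their sum in O4AID was 285 CPM untreated and 489 after 24 h, with *Sox7* at 0 after 1.5 and 10 h. *Sparc* alone made up 275 and 445 CPM of these O4AID sums, with a log2 ratio of 0.69. Of the 7 markers compared there at 24 h, 3 were at least 2-fold higher (*Gata6*, *Pdgfra* and *Dab2*). The 6 primitive streak markers, which include *Eomes* and *Mixl1*, summed to 13.5 to 16.3 CPM in untreated CreER and 42.0 to 44.7 after 36 h, with 2 called higher (*Eomes* and *Gsc*) and 1 lower (*Mixl1*) of 4 tested. *Eomes* alone made up 12.8 CPM of this sum before treatment and 41.1 after 36 h, while *T* stood at 0.477 and 0.387 CPM. In O4AID they summed to 15.6 CPM untreated, with *Mesp1* at 0, and 14.3 after 24 h. The 6 fibroblast markers summed to at most 8.03 CPM in any library, with *Postn*, *Lum* and *Dcn* at 0 in untreated O4AID. The part of these shifts in the changes of the members was not tested.

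Genes that varied most like the members were sought over the 15 libraries, by Pearson's r of log2(CPM + 1) centred within each route, among genes with at least 5 CPM on average in both routes. The libraries share time, line and depth, so r is a description. Closest to *Nodal* among 9763 genes were *Triml1* (r = 0.962), *Dgke* (0.955) and *Fbxo5* (0.955), and closest to *Tdgf1* were *Phc1* (0.985), *Pias2* (0.98) and *Diaph1* (0.977). Closest to *Lefty1* among 9764 genes were *Pml* (0.947), *Stk35* (0.922) and *Ptpn3* (0.916), and closest to *Lefty2* were *Gon7* (0.917), *Cpt1a* (0.915) and *Mif* (0.895). *Cer1* was not detected and had no such search. *Lefty1* and *Lefty2* lay under 5 CPM in O4AID, so neither could be found as the closest gene of another member. With each other they had r = 0.971 in the 10 CreER libraries and 0.393 in the 5 O4AID libraries, where their counts were low.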

How the data were processed

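Total RNA of 15 ESC libraries was depleted of ribosomal RNA and sequenced as directional paired-end libraries. Per the submitters' processing notes and the study's methods, reads were trimmed with Trim Galore 0.1.4, aligned to GRCm38/mm10 with TopHat2 2.1.0 and counted with featureCounts 1.5.1 on an Ensembl annotation. Strand and multimapping settings are not given in the sources used here. The deposited files hold raw counts per gene, and the normalised table of the authors was not used. The 92 spike-in entries held 0 reads and were left out.

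The members and gene lists were chosen with earlier results of these data known. All 10 CreER libraries were fitted together in edgeR 4.0.16 (quasi-likelihood, TMM, filterByExpr, robust, prior count 0.125), each time was contrasted with 0 h, and p-values were adjusted by Benjamini-Hochberg over 18969 genes and called under 0.05. DESeq2 1.42.0 was an alternative. Intervals of log2 fold changes are normal approximations from the SE. For O4AID, log2 ratios of CPM plus 1 were taken for genes with a mean of at least 10 counts, and NOISeq-sim, which the authors used, was not run because it simulates replicates. Libraries were scaled by TMM within each line, or over all 15 where lines were compared. Each replicate was counted as a sample. Replicates differed beyond sampling noise (chi-square of 3.02 to 7.00 for each degree of freedom), which does not show that they came from separate cultures, since such spread may be technical. Named pathway genes were the 3 largest called rises and falls in CreER at 36 h, the 3 largest 2-fold falls in O4AID at 24 h, and 8 genes taken for their roles, of which 1 is not reported here. Other alternatives were another scaling, filter or pseudocount, a replicate block, summed paralogs and leaving out each library. The tests were checked on simulated data. Reads carry no molecular identifiers, so counting intervals and the floor of 3 counts cover counting error only.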

Additional observations from a re-analysis of the deposited data

Results flagged for a closer look

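*Lefty1* and *Lefty2* lay on opposite sides of their starting level in the lines after 24 h. The log2 change of CPM plus 1 in CreER (mean of 2 replicates, both higher than untreated) minus that in O4AID (1 library, lower than untreated) was 1.4 for *Lefty1* and 1.65 for *Lefty2*. The added 1 CPM understates the O4AID side, where the plain ratios at 24 h were 4.66-fold and 45.5-fold lower, the latter from 2 counts. The difference was not tested, since O4AID had 1 library per time. For *Tdgf1* and *Nodal* it was 1.16 and 1.09. The rise of *Lefty2* in CreER at 24 h was small, and its call was lost with DESeq2 (adjusted p 0.0848).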

How the results depend on the processing

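Of the counts of called members and pathway genes, 240 values under the alternatives lay within 1.5 times the reported count and 24 did not, and the cause was not tested. Leaving out 1 library at a time gave 0 to 3 members called at 12 h and 4 to 7 for 36 h against 24 h. It gave 4 to 7 pathway genes at 18 h, 10 to 16 at 36 h and 4 to 9 for 36 h against 24 h. At 18 h DESeq2 and the fit of the 2 times alone each called 4 pathway genes. In O4AID a pseudocount of 5 CPM left 1 member past 2-fold at 6, 10 and 24 h, total-count scaling left 1 at 6 h and 2 at 24 h, and summing *Lefty1* and *Lefty2* left 1 at 6 h. Of the pathway genes in O4AID, a pseudocount of 0.1 CPM gave 4 at 6 h, 5 at 10 h and 8 at 24 h, a pseudocount of 5 CPM gave 1 at 6 h and 1 at 10 h, and total-count scaling gave 1 at 6 h.

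Values that turned their sign had not been called. Leaving out 1 library at a time, the log2 fold change of *Nodal* at 24 h ran from -0.0331 to 0.0831 and that of *Smad7* at 18 h from -0.0271 to 0.0602. That of *Acvr2b* ran from -0.062 to 0.131 at 12 h, from -0.0459 to 0.148 at 24 h, from -0.0735 to 0.12 at 36 h and from -0.0915 to 0.0441 for 36 h against 24 h. Total-count scaling gave *Acvr2b* -0.00237 at 12 h and -0.0589 at 36 h. That scaling moved the median of all genes for 36 h against 24 h by -0.107, from 0.00408 to -0.103, the only such shift over 0.1.

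Replicate numbers of CreER did not pair the samples: over 10 pairs of times, deviations of same-numbered libraries correlated between -0.0209 and 0.0501. With the replicate number as a block, 3, 4, 6 and 7 members were called at 12, 18, 24 and 36 h and 7 for 36 h against 24 h, with 0, 7, 7, 15 and 8 pathway genes. No pairing was possible in O4AID. With 2 replicates in CreER and 1 library in O4AID, small changes and low genes such as *Lefty2* in O4AID (2 to 138 counts) are held with little precision.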
